A study of Homo sapiens with 18 samples.

Results

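The MYC and MAX network is a set of transcription factors that pair through a shared helix-loop-helix and leucine zipper domain, and its 10 genes considered here are MYC, MYCN and MYCL, their partner MAX, the MAX-binding repressors MXD1, MXD3, MXD4, MXI1 and MNT, and PVT1, a long non-coding RNA gene next to MYC. The genes were chosen by symbol, and where several probe sets were annotated to a symbol alone, the one brightest on average over the lines stands for the gene. They are 10 of 19774 genes measured, and their 34 probe sets are among 40914 with a single gene. All 10 genes exceeded the background level in at least 1 line. That level, 4.87 log2 units, is the 95th percentile of probe sets for genes restricted to other tissues, and a value at or under it is read as not detected.

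The study profiled total RNA of 18 established cell lines labelled as colorectal cancer, 1 array a line, as part of work on whether tumour subtypes appear in laboratory models. The labels name no treatment. HUTU80 is known as a line from a tumour of the duodenum, not the large bowel. The 10 lines CAR1, CL40, HT55, HUTU80, LS180, OUMS23, RKO, SW1463, SW48 and SW948 were kept in DMEM/F-12. The 8 lines COLO320HSR, HCT116, KM12, LS513, MDST8, NCIH716, RCM1 and SNUC1 were kept in RPMI-1640 with added glucose and pyruvate, and both media held fetal bovine serum and antibiotics. A line is a single array with no replicate, so how far a line's value would move on repetition is unknown, the order of neighbouring lines cannot be judged, and line and medium cannot be told apart.

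Of 8 colorectal epithelium markers, between 1 and 8 exceeded background in a line, with 1 in MDST8 and in COLO320HSR, 3 in RKO and in HUTU80, and 4 in CAR1 and in OUMS23. The adhesion gene CDH1 was at background in 5 lines. NCIH716 expressed 6 of 7 measured neuroendocrine markers. At most 1 leukocyte and 1 endothelial marker exceeded background in any line. With 18 arrays the precision of every comparison is limited by their number.

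MYC proteins dimerise with MAX and bind the E-box hexamer CACGTG to activate genes of ribosome assembly, metabolism and the cell cycle, while MXD proteins, MXI1 and MNT take MAX to the same site and repress. In the intestine MYC is a target of WNT signalling and serves the proliferating crypt, and MXD1 is known from differentiating cells. MYCN and MYCL are paralogs that can replace MYC in some settings and are normally restricted to particular tissues.

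Since the network reads this hexamer, the network's own promoters that contain it are shown. Promoter sequences of 8 members were compared over the 250 bases before the annotated start (RefSeq, GRCh38.p14), and MXD4 and MNT held CACGTG, which reads the same on both strands, against 7.73% of 27305 genes with such a sequence. MYC and PVT1 were without such a sequence, so their promoters were not searched. The capitals mark the hexamer, each sequence is written 5′ to 3′ on its gene's strand, and a match is a description of the letters, not a bound site. The MXD4 stretch is chr4:2262312-2262359 on the minus strand, with the hexamer starting 238 bases before the start, and the MNT stretch is chr17:2401218-2401283 on the minus strand, with the hexamer starting 193 bases before it.
MXD4: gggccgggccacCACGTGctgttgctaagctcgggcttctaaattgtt
MNT: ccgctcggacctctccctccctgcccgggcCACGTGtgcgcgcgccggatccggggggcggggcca

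MYC was far above background in all 18 lines and spanned 3.67 log2 units, with a median of 11.62. COLO320HSR was highest at 13.09, followed by SNUC1 at 12.39, RCM1 at 12.06, HCT116 and SW1463 at 11.85, SW948 at 11.83, HT55 at 11.76, NCIH716 at 11.68, HUTU80 at 11.67 and RKO at 11.58. Below the median were LS513 at 11.23, SW48 at 11.19, LS180 at 11.07, KM12 at 10.60, CAR1 at 10.49, OUMS23 at 10.23, CL40 at 10.08 and MDST8 at 9.42. COLO320HSR stood 0.70 above the next line and MDST8 0.65 below the next, and the gaps between the other lines were smaller. The standard deviation over lines was 0.90 log2 units, against a median of 0.63 over all genes tested. A second MYC probe set did not exceed background in any line, so the MYC level rests on 1 probe set.

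**Figure D1:**
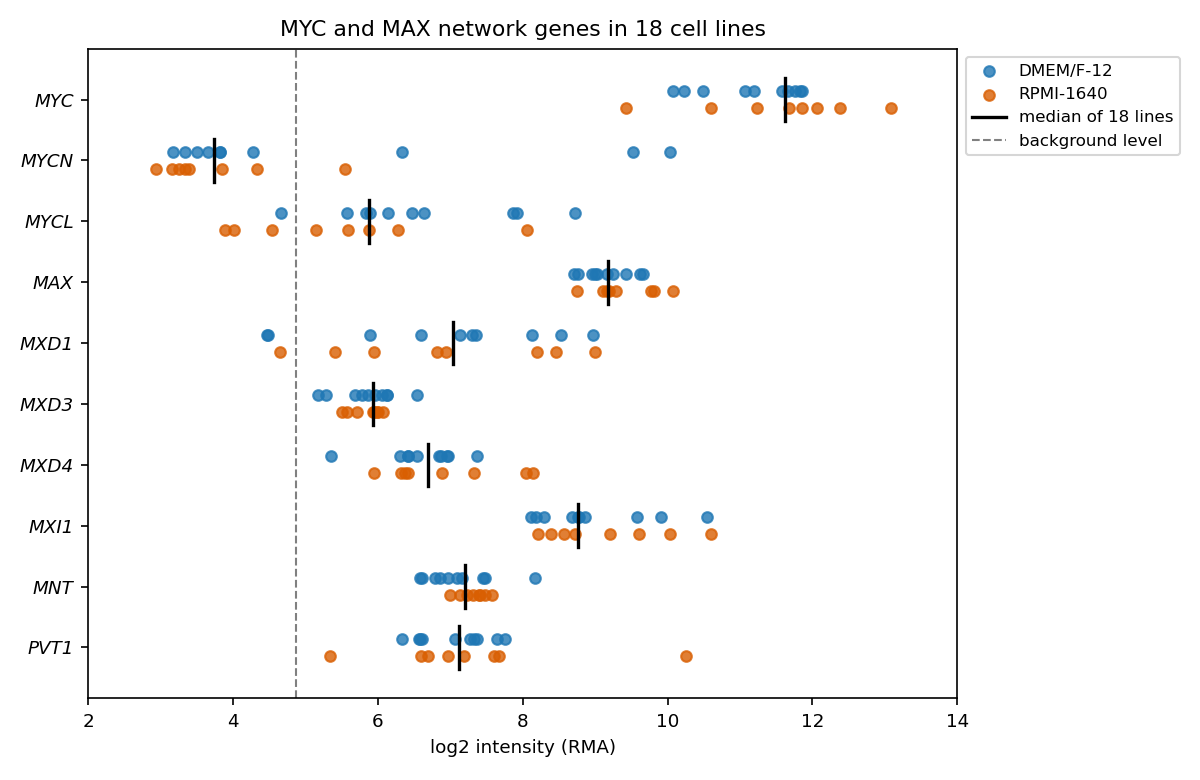
Log2 intensity (x axis) of the 10 network genes, 1 point a line coloured by medium, with a bar at the median of 18 lines and a dashed line at the background level of 4.87. MYCN stood at background in 14 lines and reached 10.03, whereas MYC exceeded 9.4 in every line. Positions of different genes on the axis are not comparable, since probe sets differ in response.

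MYCN, the paralog named for its amplification in neuroblastoma, exceeded background in 4 lines. CAR1 had 10.03, OUMS23 9.53, HT55 6.33 and NCIH716 5.55, while the remaining 14 lie between 2.94 in MDST8 and 4.32 in LS513. CAR1 and OUMS23 thus stood more than 3 log2 units above every other line, and their MYC levels, 10.49 and 10.23, were among the 5 lowest. CL40 and MDST8, with lower MYC than either, had MYCN at background (3.50 and 2.94), and KM12, with MYC at 10.60, had 3.34. HT55 and NCIH716 had MYC on the higher side of the median together with MYCN above background.

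Over all 18 lines the MYC and MYCN levels gave a Pearson r of -0.30 (permutation p = 0.226, two-sided, n = 18) and a Spearman rho of -0.14 (permutation p = 0.583). Without CL40 and MDST8, the lines farthest from the median MYC level, r was -0.61 (permutation p = 0.0142). Without CAR1 and OUMS23 it was 0.16 (permutation p = 0.535), so the negative sign rests on these lines. Within DMEM/F-12, the medium of CAR1 and OUMS23, r was -0.53 (permutation p = 0.115, n = 10), and within RPMI-1640 it was 0.18 (permutation p = 0.644, n = 8). Over 13014 genes the deviations of CAR1 and OUMS23 from the mean of each gene correlated at 0.05, rank 52 of 153 pairs of lines, the highest pair reaching 0.45.

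The other MYCN probe sets were dimmer. Of the 9, 1 exceeded background in any line, and it peaked at 5.18 in CAR1 with an r of 0.84 to the chosen one. The MYCN neighbours on chromosome 2 that were above background in all lines, DDX1, an RNA helicase often carried with MYCN, NBAS, a vesicle-transport gene, and SMC6, a chromosome-maintenance gene, were near their medians in CAR1. DDX1 read 10.75 in CAR1 and 10.96 in OUMS23 against a median of 10.90, and NBAS 7.46 and 7.47 against 7.45. SMC6 read 8.43 in CAR1, its median, and 9.23 in OUMS23. The antisense gene MYCNOS did not exceed background in any line. KCNS3, a potassium channel subunit 5 genes away, was highest in CAR1 at 9.66 and at background in OUMS23.

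MYCL, the paralog first found in lung cancer, exceeded background in 14 lines. HT55 was highest at 8.72, then LS513 at 8.06, LS180 at 7.92 and SW1463 at 7.87, which stood apart from OUMS23 at 6.64, CL40 at 6.47, RCM1 at 6.28 and CAR1 at 6.14. SW48 had 5.89, SNUC1 5.87, SW948 5.83, HCT116 5.59, HUTU80 5.57 and KM12 5.14. RKO at 4.67, COLO320HSR at 4.53, MDST8 at 4.01 and NCIH716 at 3.89 were at background, so lines without detectable MYCL included the lines with the highest and the lowest MYC. MYC and MYCL showed no relation over the 18 lines (r = 0.02, permutation p = 0.935, rho = -0.09, permutation p = 0.730). A second, dimmer MYCL probe set, which reached 5.54, correlated with the chosen one at 0.53. The neighbours PPIE, TRIT1, PPT1, RLF and ZMPSTE24, above background in all lines, did not peak in HT55. BMP8B, a growth-factor gene 4 places away, did, at 6.51.

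**Figure D2:**
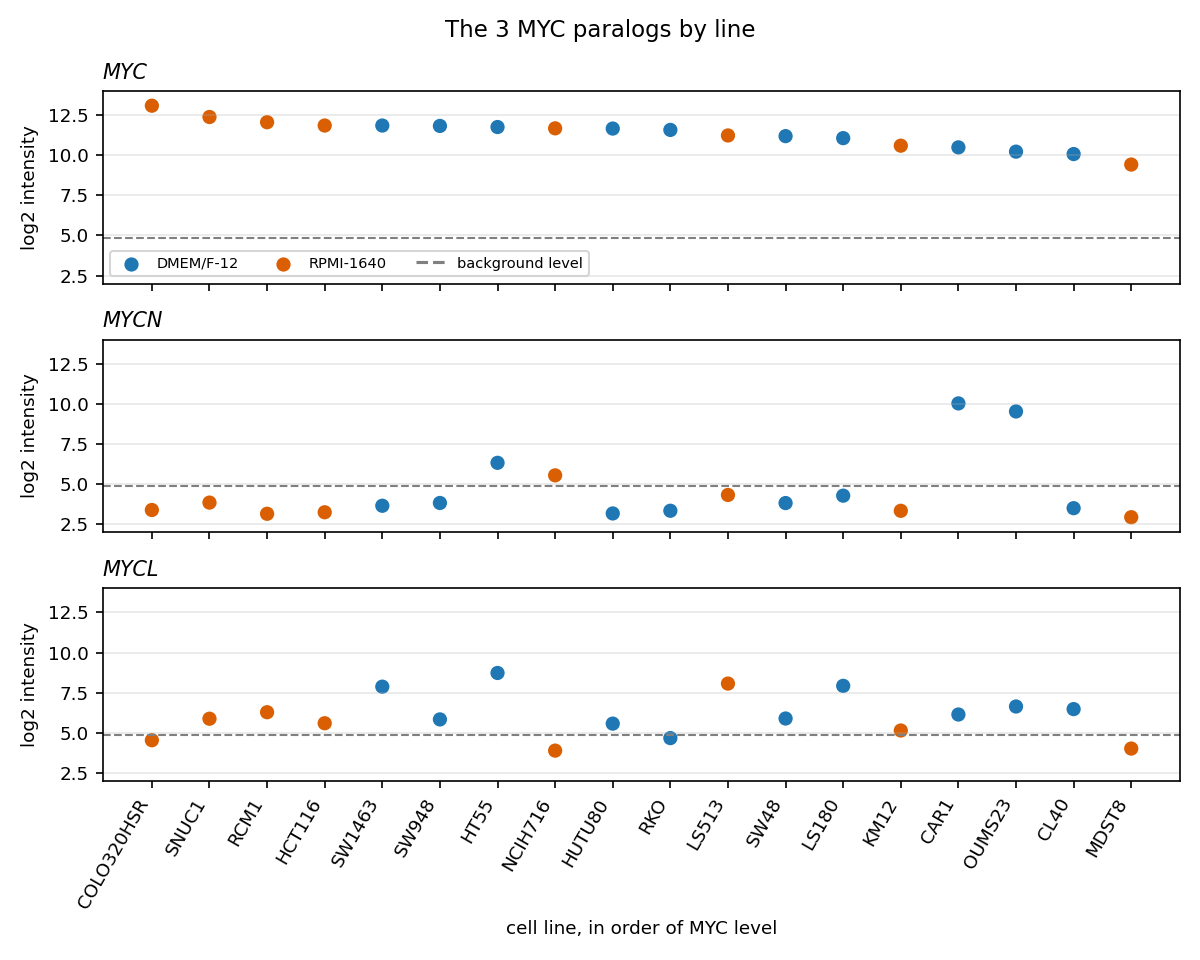
Log2 intensity of MYC, MYCN and MYCL (y axes) in each of the 18 lines, ordered by MYC level and coloured by medium, with the background level dashed. CAR1 and OUMS23, at 10.03 and 9.53 for MYCN, lie toward the low end of MYC, next to CL40 and MDST8, in which MYCN was not detected.

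MAX, the obligate partner, varied little. It lay between 8.71 in HUTU80 and 10.08 in NCIH716, with COLO320HSR next at 9.81 and a standard deviation of 0.39. The MAX level had no clear relation to MYC (r = 0.12, permutation p = 0.636, rho = -0.05, permutation p = 0.839), and the sign turned with other MAX probe sets.

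Among the repressors MXD1 varied most, with a standard deviation of 1.50. SNUC1 had 9.0, HT55 8.97, CL40 8.53, KM12 8.46, LS513 8.19, LS180 8.12, SW1463 7.35, RKO 7.29 and SW948 7.13. NCIH716 had 6.94, RCM1 6.82, OUMS23 6.59, COLO320HSR 5.94, CAR1 5.88 and MDST8 5.41, and HCT116 at 4.65, HUTU80 at 4.49 and SW48 at 4.46 were at background. A second MXD1 probe set, above background in 15 lines, had an r of 0.96 to the chosen one over 18 lines, and another, above background in 4, had 0.89. MXD1 was unrelated to MYC (r = 0.03, permutation p = 0.921, rho = 0.07, permutation p = 0.799).

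MXI1, also called MXD2, ran from 8.11 in OUMS23 to 10.60 in COLO320HSR, with SW1463 next at 10.54, RCM1 at 10.04 and LS180 at 9.91. It was the member that went most closely with MYC. The Pearson r was 0.54 (permutation p = 0.0207, n = 18), rho was 0.59 (permutation p = 0.0111), and r was 0.56 (permutation p = 0.0241) without CL40 and MDST8. Among the DMEM/F-12 lines r was 0.52 (permutation p = 0.120, n = 10), and it was 0.56 (permutation p = 0.151, n = 8) among the RPMI-1640 lines. It was 0.40 (permutation p = 0.111) without COLO320HSR, the line highest in both, and 0.45 (permutation p = 0.0783) without CAR1 and OUMS23. In a limma fit of every gene on the MYC level, the adjusted p of MXI1 was 0.519, so this relation did not pass correction over all genes.

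MXD4 ran from 5.35 in CAR1 to 8.14 in MDST8, with COLO320HSR at 8.05 and all other lines at or under 7.36, so that both the line with the lowest and the line with the highest MYC had high MXD4. Its r with MYC was -0.01 (permutation p = 0.979). MXD3, the proliferation-associated member of its group, was dim and even, from 5.17 in CL40 to 6.53 in CAR1. MNT, the most widely expressed antagonist of MYC, lay between 6.58 in CAR1 and 8.16 in HT55, with KM12 next at 7.57. Their r with MYC was -0.17 (permutation p = 0.496) for MXD3 and 0.28 (permutation p = 0.250) for MNT. The MXD3 value was -0.51 without CL40 and MDST8 and 0.04 without CAR1 and OUMS23. In all, 9 pairs of MYC with another member were computed, and MXI1 was the one with a permutation p under 0.05 in all 18 lines.

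PVT1 lies directly after MYC in the RefSeq gene order of GRCh38.p14, and its reading depended on the probe set. The brighter one was above background in all lines and highest in HCT116 at 10.26, more than 2.5 log2 units over RKO at 7.75. RCM1 had 7.67, SW1463 7.64, SNUC1 7.60, OUMS23 7.37, CAR1 7.32, SW48 7.27, LS513 7.18, SW948 7.07 and MDST8 6.97. COLO320HSR had 6.69, KM12 and HT55 6.60, LS180 6.58, CL40 6.56, HUTU80 6.34 and NCIH716 5.34. Its r with MYC was 0.14 (permutation p = 0.573, rho = 0.32, permutation p = 0.195), and COLO320HSR, the highest line for MYC, was below the PVT1 median of 7.12.

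The second probe set ranked the lines differently. It read 11.19 in NCIH716, the lowest line of the first probe set, and 6.56 in COLO320HSR, and was at background in the other 16 lines, HCT116 included. The 2 probe sets correlated at -0.46 over 18 lines. The rule by highest mean picks the first, and which transcript each detects was not analysed here. This second probe set was singled out after its values were seen.

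**Figure D3:**
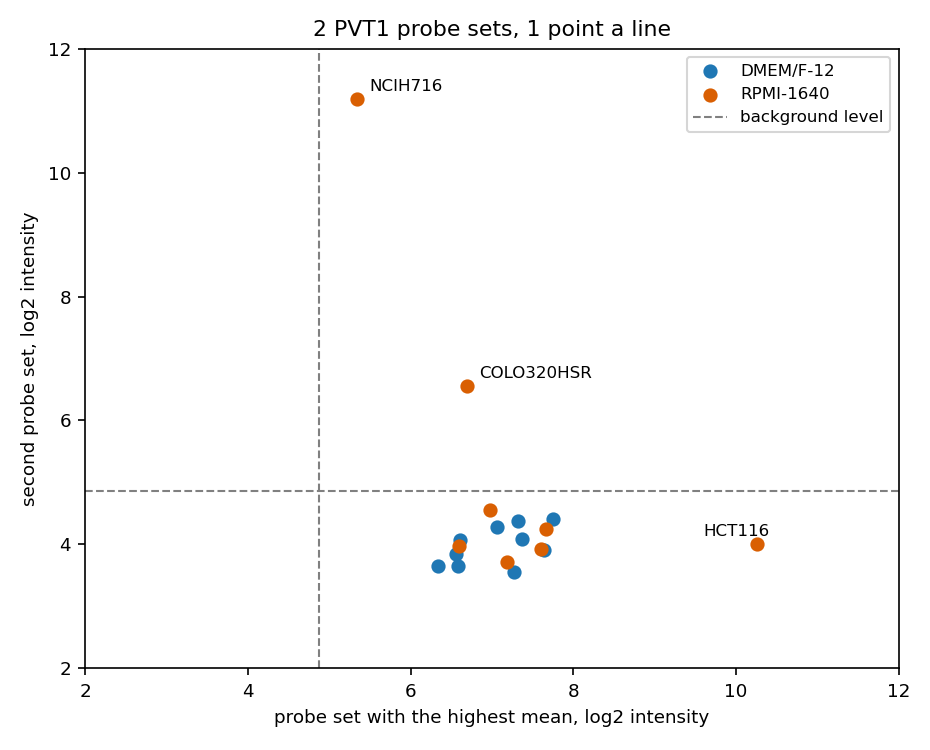
Log2 intensity of 2 PVT1 probe sets, the one chosen by highest mean on the x axis and the second on the y axis, 1 point a line coloured by medium, with dashed lines at background. HCT116 stands alone at 10.26 on the x axis, and NCIH716 and COLO320HSR, at 11.19 and 6.56, are the lines above background on the y axis.

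The genes before MYC on chromosome 8 were high in NCIH716. Within 5 measured genes before MYC, 3 exceeded background, and NCIH716 was the highest line for each. TRIB1, a pseudokinase that directs protein turnover, was 12.66 there, LRATD2 was 12.20, and POU5F1B, a processed copy of the pluripotency factor gene POU5F1, was 7.58. COLO320HSR was close behind for LRATD2 at 11.93 and POU5F1B at 7.45, but had TRIB1 at 7.50, below its median of 9.86. The POU5F1B signal is uncertain, since probes may also catch its near-identical parent gene's transcripts. Of the 5 genes after MYC, PVT1 alone was above background.

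The window was widened to 15 genes on each side after these values were seen. Of the 12 genes before MYC above background in at least 1 line, NCIH716 was the highest line for 9 and at least 2 log2 units above the median for 8. The same line was highest for 7.65% of all 13014 genes above background, and at least 2 log2 units above the median for 5.69%. The adhesion and actin-scaffold gene MTSS1 read 12.53 in NCIH716 against a median of 5.88, and ZNF572 read 8.66 against 3.52. NSMCE2, a SUMO ligase of the chromosome-maintenance complex, read 12.60 against 8.31, WASHC5, a subunit of an actin-nucleating complex on endosomes, 12.31 against 8.27, SQLE, a sterol-synthesis enzyme, 12.98 against 10.29, and NDUFB9, a subunit of respiratory complex I, 13.53 against 11.60. After MYC, 6 genes exceeded background and NCIH716 was the highest line for 0 of them. PVT1 is among these by its brighter probe set, lowest in NCIH716 at 5.34. By the second PVT1 probe set NCIH716 was the highest line, at 11.19, so the count after MYC depends on the probe set. The MYC level of NCIH716 itself was 11.68, within 0.06 of the median. In COLO320HSR 1 of the 12 genes before MYC, LRATD2, was at least 2 log2 units above its median. These are RNA levels of 1 array a line, and gene copy number was not analysed here.

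**Figure D4:**
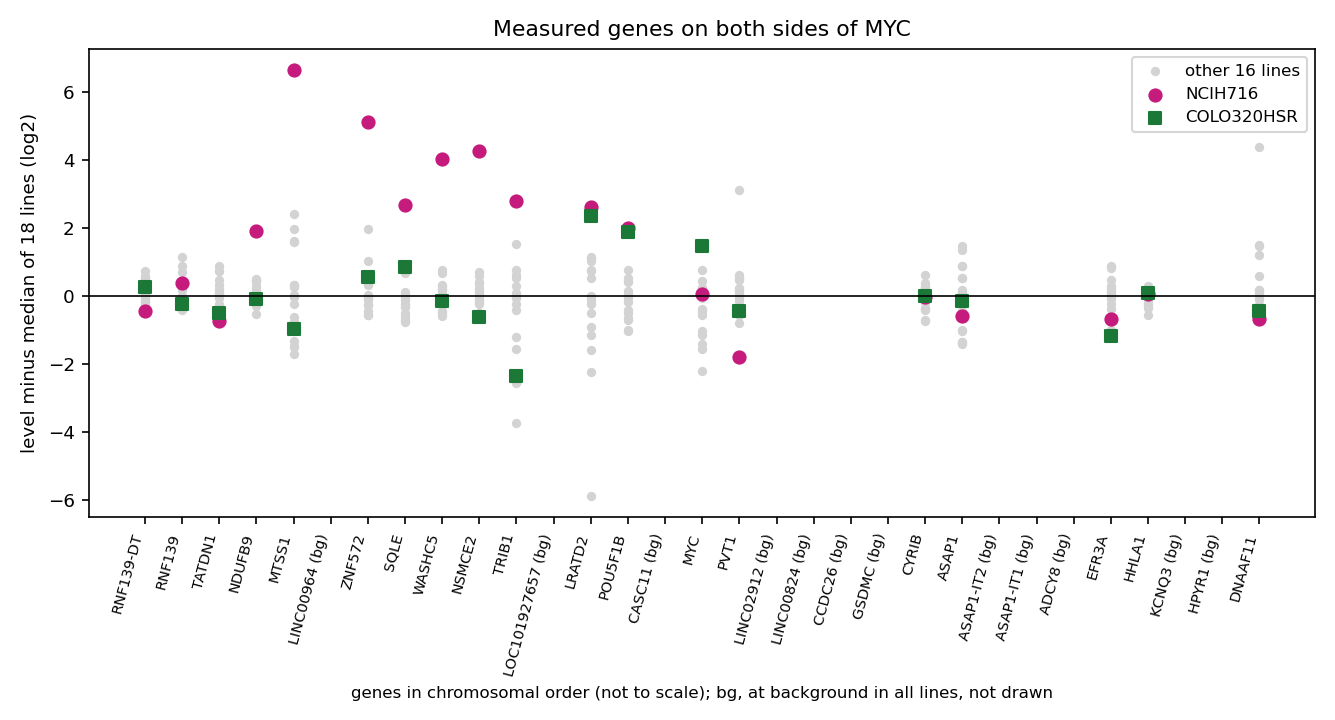
Level minus the median of 18 lines (y axis, log2) for the measured genes in order on both sides of MYC (x axis, not to scale), with NCIH716 as circles, COLO320HSR as squares and the other lines in grey. From NDUFB9 to POU5F1B the circles lie highest at every gene drawn, up to 6.65 above the median at MTSS1, and at MYC the square is highest. PVT1 is drawn by its brighter probe set.

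The fit of all genes on the MYC level asked which transcripts follow it across lines. At an adjusted p under 0.05, limma called 0 of 13013 genes (0%), and 1065 had an unadjusted p under 0.05 (8.18%). No other member was called. The slope of MYCN was -0.70 log2 units per unit of MYC (SE 0.52, adjusted p = 0.814 by limma), and that of MXI1 was 0.48 (SE 0.18, adjusted p = 0.519 by limma).

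Of 23 ribosome biogenesis genes that MYC is known to activate, 0 were called, 21 had a positive slope and the median r was 0.19, beside 6990 of 13013 positive and a median r of 0.02 over all genes. DKC1, the pseudouridine synthase of box H/ACA particles, had the highest r at 0.66 (slope 0.30, SE 0.08, adjusted p = 0.456 by limma), and it ranged from 10.30 in SW948 to 11.72 in RCM1. BOP1, needed for the large ribosomal subunit, had an r of 0.48, and FBL, the rRNA methyltransferase, 0.43.

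Of 23 known targets in metabolism and the cell cycle, 0 were called, 19 had a positive slope and the median r was 0.21. PHB1, the mitochondrial prohibitin, had an r of 0.63 (slope 0.20, SE 0.07, adjusted p = 0.494 by limma), from 10.17 in OUMS23 to 11.21 in HCT116. SLC7A5, an amino acid transporter, had an r of 0.29. TFAP4, a transcription factor induced by MYC, had an r of 0.62 but exceeded background in 1 line.

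Of 11 genes that MYC is known to repress, 0 were called, 3 had a positive slope and the median r was -0.23. An unadjusted p under 0.05 by limma was reached by 3 of the 11 (27.3%, beside 8.18% of all genes). In the ribosome biogenesis list and in the metabolism and cell cycle list it was reached by 2 of 23 each (8.70%). THBS1, the secreted inhibitor of vessel growth, had an r of -0.60 (slope -1.76, SE 0.56, adjusted p = 0.491 by limma). It was above background in 9 lines, from CAR1 at 11.30 and MDST8 at 9.69 down, and at 3.17 in COLO320HSR. GADD45B, a stress-response gene, had an r of -0.56 and was lowest in COLO320HSR at 4.30 and highest in CL40 at 10.33. CDKN1A, the cell-cycle inhibitor p21, had an r of -0.45.

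MYC cofactor and turnover genes gave 0 calls of 17 and 9 positive slopes, with the ubiquitin ligase subunit SKP2 at an r of 0.34, the helicase RUVBL1 at 0.36 and the acetyltransferase KAT2A at 0.40. WNT target genes gave 0 calls of 9 and 7 positive slopes, with SP5 at an r of 0.45, RNF43 at 0.35 and ASCL2 at 0.34. The wider network of MLX and MAX partners gave 0 calls of 7 and 6 positive slopes, with MGA, a further MAX partner, at 0.39. CACGTG stood in the promoter window of 10 of 20 genes of the metabolism and cell cycle list that have such a sequence, CDK4, LDHA and ODC1 among them. It stood in 2 of 19 ribosome biogenesis genes, 2 of 9 genes repressed by MYC and 2 of 6 of the wider network, beside 7.73% of 27305 genes. These counts describe the lists and are not a result of the expression values. Enterocyte differentiation genes gave 0 calls of 10 and 10 positive slopes. Their median r of 0.19 matched that of the ribosome biogenesis genes, so positive slopes were not particular to MYC targets. Colorectal epithelium markers gave 0 calls of 8, 4 positive slopes and a median r of 0.03. CDX2, the intestinal identity factor, is in both lists. Its r with MYC was 0.68 (slope 1.41, SE 0.35, adjusted p = 0.380 by limma). COLO320HSR was highest for both, with CDX2 at 11.44 and the next line, HT55, at 8.89.

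The genes most like MYC in pattern, among 8162 others that ranged over at least 2 log2 units, were PM20D2 (r = 0.82), RPIA, an enzyme of the pentose phosphate pathway (0.77), FAM222A (0.75), VPS13A, a lipid transfer gene (0.74), and LATS1, a Hippo pathway kinase (0.73). The lowest were ARHGEF18 and JAK2 (both -0.78) and IL1B (-0.77), the last reaching 8.71 in MDST8. These r values describe 18 lines measured together and hold no test. For MYCN, VTCN1 (0.92), ALPP (0.90), GABRP (0.90), ALPG (0.89) and MFAP5 (0.89) were most alike, and without CAR1 and OUMS23 their r lay between -0.16 and 0.51, so the likeness is that of these lines. VTCN1, an immune checkpoint ligand, and ALPP, the placental alkaline phosphatase, were highest in CAR1, at 10.42 and 8.39. MON1A (-0.88), C10orf12 (-0.84) and TBC1D16 (-0.79) were most opposite.

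MYCL went with CD46, a complement regulator (0.85), TMEM125 (0.85), C1orf210 (0.84), LRRC75A (0.84) and FAAH2 (0.83), and opposite to TMEM237 (-0.87), CCDC88A (-0.84) and VKORC1 (-0.82). Without the 2 lines highest in MYCL these lay between 0.73 and 0.84 and between -0.83 and -0.79. The genes most like PVT1, IRAG1, SLC27A6, MAGEB2, GPAT2 and TRIM72, had r between 0.79 and 0.81 and were all highest in HCT116, and without the 2 highest lines their r was 0.19 to 0.44. PIK3R3 (-0.87), GCHFR (-0.75) and ZBTB18 (-0.75) were opposite, at -0.69, -0.50 and -0.30 without the 2 highest lines. PIK3R3 and GCHFR were highest in NCIH716 and lowest in HCT116. These PVT1 values are those of the brighter probe set, and the second probe set ranked both lines differently.

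MXD1, the most variable of the repressors, was the other member whose level was set against all genes, and the remaining 8 were not used in this way. In the fit on the MXD1 level, limma called 400 of 13013 genes (3.07%), 223 with a positive slope (1.71%) and 177 with a negative one (1.36%), and 2713 had an unadjusted p under 0.05 (20.8%). No other member was called. MYCL had the steepest slope among them, 0.42 (SE 0.19, adjusted p = 0.223 by limma).

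Of 10 enterocyte differentiation genes tested, 6 were called, all with a positive slope, beside 1.71% of all genes. CEACAM5, an adhesion molecule of the mature crypt surface, had a slope of 2.04 log2 units per unit of MXD1 (SE 0.32, adjusted p = 0.00744 by limma), LGALS4, an intestinal galectin, 2.25 (SE 0.38), VIL1, the microvillus protein villin, 2.07 (SE 0.36), and CDH17, the liver-intestine cadherin, 1.93 (SE 0.34). The homeobox factor CDX1 had 1.16 (SE 0.21) and the fatty acid binding protein FABP1 1.82 (SE 0.47, adjusted p = 0.0432 by limma). KRT20, SLC26A3, CDX2 and CA2 were not called. VIL1 and LGALS4 are also among the 8 colorectal markers used to check the lines. CEACAM5 was above background in 9 lines, 12.26 in SNUC1, 12.04 in HT55 and 11.92 in CL40, the lines with the highest MXD1, and read 3.40, 3.29 and 3.44 in HCT116, HUTU80 and SW48, where MXD1 was not detected. VIL1 separated these lines alike, with 3.07, 3.21 and 3.09 in those and 11.28, 11.72 and 10.98 in SNUC1, HT55 and CL40. KM12, next in MXD1 at 8.46, had lower CEACAM5 (6.68) and VIL1 (8.18) than SNUC1, HT55 and CL40. RKO, with MXD1 at 7.29, had neither CEACAM5 nor VIL1 above background (3.72 and 3.22).

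Of 7 genes of the wider network, 2 were called, both with a positive slope, beside 1.71% of all genes. An unadjusted p under 0.05 by limma was reached by 5 of them (71.4%, beside 20.8% of all genes). TXNIP, an arrestin-like inhibitor of glucose uptake controlled by the MLX dimers of MLXIP and MLXIPL, had a slope of 1.21 (SE 0.26, adjusted p = 0.0207 by limma, r = 0.74), and ARRDC4, its relative under the same control, 0.80 (SE 0.21, adjusted p = 0.0471 by limma, r = 0.66). TXNIP was undetected in HCT116 (3.45) and HUTU80 (3.65), both without MXD1, but read 8.72 in SW48, which also lacked it, and between 7.85 and 11.90 elsewhere. ARRDC4 read 3.02 in HUTU80, 4.40 in MDST8 and 5.28 and 5.29 in COLO320HSR and HCT116, and was highest in HT55 at 9.98, NCIH716 at 9.60 and LS513 at 9.44. MLXIP, also known as MondoA, had an adjusted p of 0.0678 by limma.

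The promoter letters of these genes are shown because MLX dimers read paired E-boxes. In 1 of its 2 annotated promoters TXNIP held CACGNG followed after 5 free bases by a second CACGNG, a paired motif searched on both strands in the 250 bases before the start and free to overlap a CACGTG, which 16 of 35116 promoter sequences (0.0456%) held. ARRDC4 held a single CACGTG, as did MLX, and 6.34% of promoter sequences held at least 1. The motifs were chosen after the values were seen. The TXNIP stretch is chr1:145996621-145996697 on the minus strand with the motif starting 88 bases before the start, and the ARRDC4 stretch is chr15:97960463-97960528 on the plus strand with the motif starting 210 bases before it (GRCh38.p14, RefSeq). The capitals mark the motifs.
TXNIP: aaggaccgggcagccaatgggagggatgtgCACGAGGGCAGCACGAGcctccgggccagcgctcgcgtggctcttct
ARRDC4: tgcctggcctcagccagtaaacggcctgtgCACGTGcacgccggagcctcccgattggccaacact

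Of the MYC targets, 1 of 23 in metabolism and the cell cycle and 0 of 23 in ribosome biogenesis were called on the MXD1 level. Over all genes 3.07% were called, so this count is near the general share. The gene called was NME1, a nucleoside diphosphate kinase, with a slope of -0.14 (adjusted p = 0.0471 by limma). It ranged from 11.52 in OUMS23 to 12.73 in HCT116. All 23 ribosome biogenesis genes had a negative slope, none was called by limma, 5 had an unadjusted p under 0.05 (21.7%, near the 20.8% of all genes), and their median r was -0.26, beside -0.07 and 5607 of 13013 positive over all genes. UTP20 had the steepest of these slopes, -0.22 (SE 0.07, adjusted p = 0.0875 by limma). ASCL2, a WNT-dependent stem cell factor, was called with a positive slope of 1.20 (SE 0.30, adjusted p = 0.0368 by limma), 1 of 9 WNT targets, beside 1.71% of all genes. It was highest in SW1463 at 10.37 and lowest in HCT116 at 3.27. Of the genes that MYC represses 0 of 11 were called by limma, 5 had an unadjusted p under 0.05 (45.5%, beside 20.8% of all genes) and 7 had a positive slope, with the stress gene NDRG1, the differentiation factor KLF4 and CEBPA at r of 0.48, 0.48 and 0.47. Of the cofactor and turnover genes 0 of 17 were called by limma and 3 had an unadjusted p under 0.05 (17.6%, under the share of all genes), with CIP2A, which stabilises MYC protein, at an r of -0.46.

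The CDH1 level moved with these results. MXD1 and CDH1 correlated at 0.48 over 18 lines, where the CDH1 values form separate clusters, and when CDH1 entered the fit as a covariate, a choice made after seeing the data, 1 of 13012 genes was called (0.00769%). TXNIP then had an adjusted p of 0.137 and CEACAM5 of 0.0923 by limma, with slopes of 1.14 and 1.64. Within the 13 lines with CDH1 above background, r with MXD1 was 0.86 for CEACAM5, 0.85 for LGALS4, 0.83 for CDH17, 0.81 for VIL1 and CDX1, 0.67 for TXNIP, 0.65 for FABP1 and 0.54 for ARRDC4. Only genes already called over all 18 lines, which include these 13, were looked at in this way. High r values were thus favoured by the choice of genes, and they cannot show whether the MXD1 relation stands apart from CDH1.

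Single lines also counted. The 400 calls became 98 without HUTU80, the duodenal line, 132 without CL40, 150 without SNUC1, 159 without HT55, 171 without LS513, 214 without HCT116, 224 without MDST8, 265 without COLO320HSR and 625 without RKO. CEACAM5, LGALS4, VIL1, CDH17 and CDX1 were called whichever line was left out. TXNIP lost its call without HUTU80 (adjusted p = 0.0712 by limma), FABP1 kept its call in 8 of 18 such fits, ASCL2 in 10, NME1 in 6 and ARRDC4 in 5, with adjusted p of up to 0.105, 0.0989, 0.115 and 0.151.

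**Figure D5:**
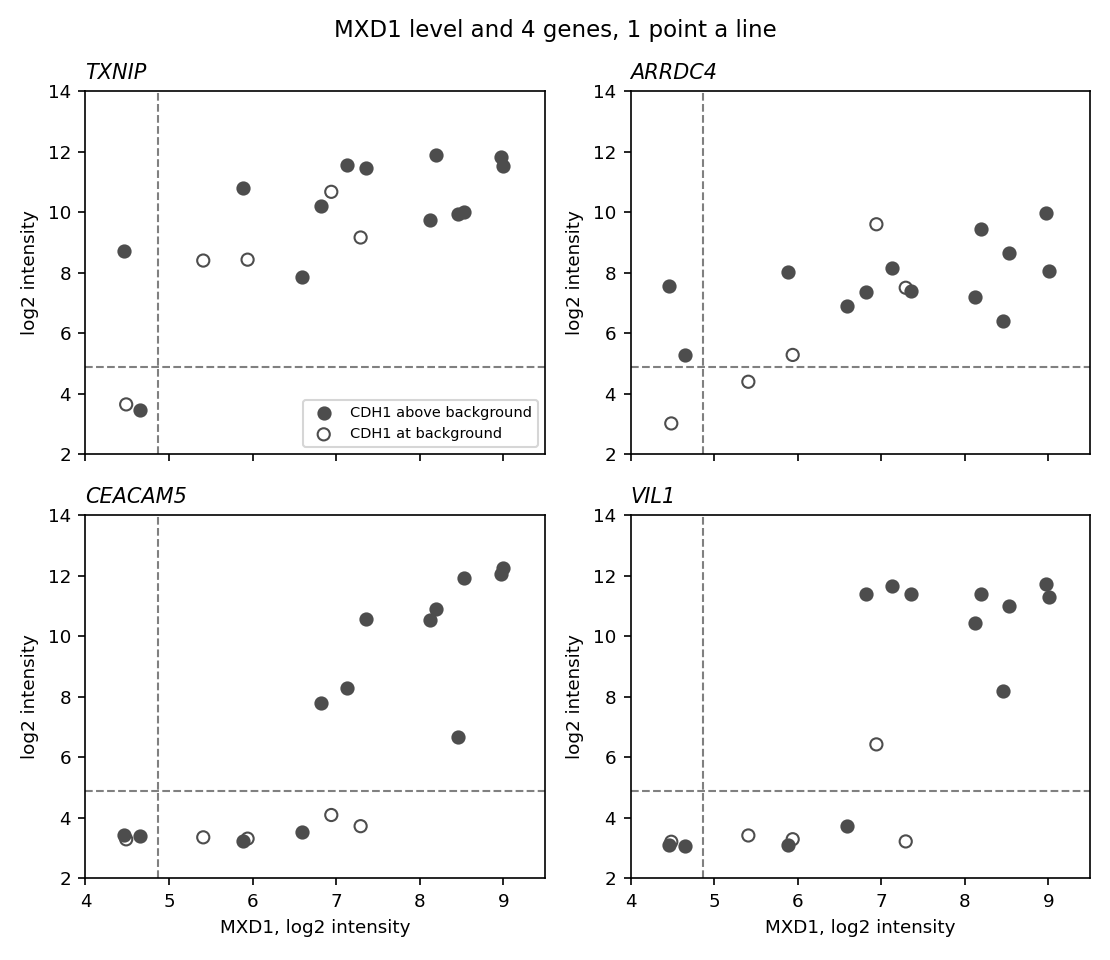
MXD1 level (x axis, log2) against TXNIP, ARRDC4, CEACAM5 and VIL1 (y axes, log2), 1 point a line, filled where CDH1 exceeded background (13 lines) and open where it did not (5 lines), with dashed lines at the background level of 4.87. The lines with the highest MXD1 are all filled, and CEACAM5 and VIL1 are at background in the lines with the lowest.

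The genes most like MXD1 were MANSC1 (r = 0.86), LMBRD1, a lysosomal cobalamin transporter (0.85), S100P (0.84), CEACAM5 (0.83) and the mucin MUC13 (0.83), all at 0.77 or above without the 2 lines highest in MXD1. GPSM1 (-0.86), the actin-binding DBN1 (-0.84) and OSBPL6 (-0.84) were opposite.

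Between the media limma called 0 of 13014 genes (0%), and 323 had an unadjusted p under 0.05 (2.48%). No member was called. MYCL was lower in RPMI-1640 by the most for its error, with a difference of -1.15 log2 units (SE 0.59), from means of 6.57 ± 1.25 (SD, n = 10) in DMEM/F-12 and 5.42 ± 1.37 (SD, n = 8). The MYCN difference was -1.43 (SE 0.90) and that of MYC 0.37 (SE 0.40), all with an adjusted p of 0.999 by limma. The groups overlapped for every member. A test of whether slopes on MYC differ between media called 0 of 13013 genes by limma, 653 at an unadjusted p under 0.05, and the MYCN slope was -2.01 among DMEM/F-12 lines and 0.14 among RPMI-1640 lines (adjusted p = 0.949 by limma).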

How the data were processed

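Total RNA of 18 lines was hybridised to 1 array each. The deposited log2 intensities were made by the authors with affy's RMA, per the submitters' processing notes, whose versions are not stated. Array medians lay within 3.65 to 3.69 and values within 2.31 to 13.71, so no further normalization was applied. Genes were named by the array annotation from 40914 probe sets with 1 gene (864 had several, 12835 none). RefSeq tables (GRCh38.p14) gave gene order and promoters. A gene was tested if above background, 4.87, in at least 1 line (13014 genes). The level came from 74 probe sets of 43 measured genes of 50 listed.

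Slopes on MYC and MXD1 and the difference between media were fitted with limma 3.58.1 (trend, Benjamini-Hochberg, 0.05) in R 4.3.3, checked on simulated data. MYC was set against each member by Pearson and Spearman correlation with 100000 permutations (two-sided). P-values measure the spread between lines, which may be in part technical. Members and lists were chosen with earlier results of these data known. Named genes were the members, per list those called (at most 6) and the 3 steepest slopes, 5 neighbours on each side of MYC, MYCN and MYCL, and for 5 members the 5 highest and 3 lowest r. Exceptions are stated where they occur. Alternatives changed the probe set rule, scaling, filter, background, model options, covariates and lines used.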

Additional observations from a re-analysis of the deposited data

Results flagged for a closer look

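Within each medium every member was checked for a line that stands apart from the others by the gap to its nearest neighbour over the whole range, 20 groups in all, and 2 stood apart. Chance flags about 1 in 20 groups. PVT1 was 10.26 in HCT116, the highest of the 8 RPMI-1640 lines, with RCM1 next at 7.67. MXD4 was 5.35 in CAR1, the lowest of the 10 DMEM/F-12 lines, with SW1463 next at 6.30.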

How the results depend on the processing

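A single array a line, and a background taken from few probe sets, limit what can be said of dim genes, and MYCN, MYCL and MXD1 have lines near that level. The number of genes called on the MYC level was 0 as reported, 1 with medium as a covariate and 0 to 1 on leaving out each line. On the MXD1 level 400 calls became 246 with no filter on dim genes, 121 among genes above background in all lines, 1 with CDH1 as a covariate and 98 to 625 on leaving out each line, and the 6 enterocyte genes became 0 with CDH1 as a covariate and 5 to 8 on leaving out each line. TXNIP kept its positive slope under all settings, 0.98 to 1.40 on leaving out each line. ARRDC4 lost its call under 5 settings besides lines left out, with adjusted p of 0.0502 to 0.299 by limma, with slopes positive throughout. No alternative changed the 0 calls between media.

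MYCN was above background in 4 lines as reported, in 0 when all its probe sets were averaged and in 2 with a background at the 99th percentile (8.57). MYCL counted 14 lines, 7 when averaged and 1 at that percentile. Of the 9 pairs with MYC, 1 had a permutation p under 0.05, and 0 did without COLO320HSR or without CAR1 and OUMS23, 0 to 1 on leaving out each line. Several r values turned sign, some of them small and others not, with -0.30 for MYCN and -0.17 for MXD3 as reported. For MAX r was -0.047 with averaged probe sets, -0.066 with the most variable probe set, -0.053 as rho and -0.059 without COLO320HSR, for MXD4 0.10 with averaged probe sets, and for MYCL -0.088 as rho. Without CAR1 and OUMS23, r was 0.16 for MYCN, -0.038 for MXD1 and 0.038 for MXD3. On leaving out each line r ran from -0.22 to 0.18 for MYCL, -0.059 to 0.18 for MAX, -0.13 to 0.13 for MXD1 and -0.31 to 0.36 for MXD4. The cause of these changes was not tested. The CDH1 covariate, leaving out CAR1 and OUMS23, and the alternatives for MYCL, the enterocyte genes and the neighbours of MYC were chosen after seeing the data. NCIH716 was the highest line for 9 of the 12 neighbours before MYC under the other probe set rules and scaling as well. The genes after MYC were not examined in this way. No paired analysis was possible because each line was measured once and in a single medium.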
